A study of Mus musculus with 54 samples.

Results

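Methanol fixation after cold dissociation was examined in 6 of the 54 samples of the series, chosen by their labels as the 3 fresh (BG1, BG3 and BG5) and the 3 methanol-fixed (BG52, BG54 and BG56) droplet libraries of C57BL/6J kidney cells released in the cold. Together they held 23478 cells, with 2356, 4084 and 5411 in the fresh libraries and 1886, 4672 and 5069 in the fixed libraries. All cells came from 19-week-old male mice of the strain AFAPIL.1DEL C57BL/6J, from 1 litter, and no group carried a genetic change that the other lacked. Kidneys were dissociated on ice with a protease of Bacillus licheniformis, which works at low temperature. Fresh aliquots were loaded directly, whereas the fixed aliquots received methanol drop by drop, were stored frozen for months and were rehydrated in saline-sodium citrate with albumin, dithiothreitol and an RNase inhibitor before loading. The cell names in the files give BG1 and BG52 the same suspension, as they do BG3 and BG54, and BG5 and BG56, so fixation, storage and rehydration moved together and cannot be told apart. Red blood cells were not depleted, and the methods planned a lower cell capture for the fixed aliquots.

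Methanol fixes cells by removing water and precipitating protein, without chemical cross-links, so that RNA stays in the cell and can be copied after rehydration. It also permeabilises membranes, and RNA that leaves cells can be captured in droplets of other cells. In the kidney most cells belong to the proximal tubule, which reabsorbs solutes and is rich in mitochondria, and abundant transcripts of such a cell type are the ones usually seen in the free RNA.

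Fixed libraries held fewer unique molecules (UMIs) per cell and a smaller share of mitochondrial transcripts. The median was 1396, 1525 and 1192 UMIs per cell in BG1, BG3 and BG5, and 936.5, 882 and 837 in BG52, BG54 and BG56. The share of UMIs from the 13 mitochondrial protein-coding genes was 29.6% ± 3.08 (SD, n = 3) in fresh and 18.6% ± 3.09 (SD, n = 3) in fixed libraries. Neither measure overlapped between groups (exact two-sided permutation test, p = 0.1, the smallest p that 3 against 3 libraries allow). Median genes per cell were 597.5, 625 and 498 in fresh and 505.5, 446 and 424 in fixed libraries, and these ranges overlapped (exact permutation p = 0.2). When each cell was thinned to 500 UMIs the order turned, with 272, 250 and 245 genes per cell in fresh and 318, 298 and 295 in fixed libraries, again without overlap (exact permutation p = 0.1). Thinning left out 340, 159 and 241 fresh and 478, 965 and 1095 fixed cells as too shallow. Any pair of libraries shared 5 to 51 cell barcodes, at most 1.54% of the smaller library.

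Cells were grouped into 32 clusters and 14 classes by marker genes. The names were rebuilt from these markers and are not the authors' own, so each name stands for cells like that type, and differences from the study may come from the names. The largest classes were proximal tubule (14527 cells), endothelial cell (1378), macrophage (1004), thick ascending limb (681), connecting tubule (638), podocyte (564), intercalated cell (559) and distal convoluted tubule (507), whereas 1779 cells stayed unnamed. The neutrophil class rested on 3 markers and was tested with 2 libraries a group, and the urothelial class lacked BG52, which held 7 such cells. Of the proximal tubule clusters, 2 held almost only fresh cells, with 92.6% and 97.5% of their 876 and 602 cells from fresh libraries. Without them Akr1c21, Gpx1 and mt-Atp8 lost their calls in the proximal tubule (edgeR adjusted p = 0.140, 0.124 and 0.0526), and the counts of calls, markers and gene groups that moved are given beside the main ones. Nearly all genes above 0 in a library were in at least 5 of its cells, with 2 to 10 genes in 1 to 4 cells, so genes in few cells appear to have been set to 0 per library, and 2805 of 13131 genes were at 0 in at least 1 of the 6. A value of 0 therefore does not show that a transcript was absent.

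Across the 14 classes, fixation was accompanied by widespread changes in both directions, including in every class a rise of AY036118 and a fall of Malat1 and Actb. UMIs were summed per library and class and compared by edgeR's quasi-likelihood test with Benjamini-Hochberg adjustment, with a call at an adjusted p under 0.05. Of 10581 genes tested in any class, 1413 rose and 1926 fell in at least 1 class, 72 of them in opposite directions in different classes. In at least 10 classes, 47 genes rose and 20 fell. Without BG3 the counts were 763 and 1127, and without BG54 they were 822 and 1102. Fold changes are on the log2 scale after scaling by trimmed mean of M-values (TMM), methanol over fresh, whereas levels are given as CPM, the UMIs of a gene per 1000000 UMIs of the same class and library.

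The share of genes called was 22% of 9699 genes in the proximal tubule, 28.6% of 4456 in endothelial cells, 25.7% of 1897 in macrophages, 23.5% of 2089 in the distal convoluted tubule, 23.3% of 2414 in the thick ascending limb and 20.1% of 2537 in podocytes. In the other classes it was 18.2% of 981 in B cells, 16.4% of 2357 in collecting duct principal cells, 16.3% of 460 in neutrophils, 14.1% of 1817 in the connecting tubule, 13.4% of 1041 in T cells, 13.1% of 2034 in intercalated cells, 11.6% of 1189 in mesangial and mural cells and 4.41% of 1633 in urothelial cells. Taking classes and genes as pairs, 9.52% of 34604 pairs rose and 10.6% fell, and outside the proximal tubule 9.09% of 24905 pairs rose and 10.3% fell. The proximal tubule calls numbered 2135, against 1068 without the 2 mostly fresh clusters, 920 without BG3 and 1009 without BG54. With the suspension as a block, pairing the aliquots, they numbered 3508, and B and T cell calls rose from 179 to 374 and from 139 to 300. B cell calls also depended on single libraries, with 12 without BG3, 17 without BG54, 32 without BG56 and 285 without BG5, as did T cell calls, with 38, 10 and 46 without BG3, BG54 and BG56. Without BG54, endothelial calls fell from 1273 to 743, macrophage calls from 487 to 221, intercalated cell calls from 266 to 133, connecting tubule calls from 257 to 115 and urothelial calls from 72 to 5. Without BG3, thick ascending limb calls fell from 562 to 244, podocyte calls from 510 to 318, principal cell calls from 386 to 176, and mesangial and mural cell calls from 138 to 31. Neutrophil calls fell from 75 to 0 without BG5, with 118 genes at an unadjusted p under 0.05 in edgeR's test. Calls in the distal convoluted tubule numbered 491, with 337 to 498 without 1 library, 228 with DESeq2 and 74 with cells thinned to 500 UMIs. DESeq2 lowered the count by over 1.5 times in each class other than the proximal tubule, where it was 1500, and thinning did so in all 14 classes, to 701 in the proximal tubule and 1 to 349 elsewhere. Leaving out BG3, BG54 or BG56 each lowered the endothelial, thick ascending limb, macrophage, connecting tubule, intercalated, mesangial and urothelial counts by over 1.5 times. Leaving out BG1 raised the urothelial count to 150. Counts were also lowered by over 1.5 times by leaving out BG1 in mesangial and mural cells (72), BG5 in urothelial cells (36), BG54 in principal cells (210), BG56 in podocytes (333) and BG3 in neutrophils (31).

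AY036118, a transcript annotated within a region of ribosomal RNA sequence, showed the largest rise. In the proximal tubule it stood at 15.2, 3.39 and 5.63 CPM in BG1, BG3 and BG5, and at 422, 579 and 709 in BG52, BG54 and BG56. Every fixed library was far above every fresh library, with a log2 fold change of 6.04 (SE 0.34, edgeR adjusted p = 7.74e-07). It passed in all 14 classes, and in 13 without BG5, although no fold is given for neutrophils and urothelial cells, whose fresh libraries held none. Gm42418, which overlaps the same kind of sequence, rose from 191, 169 and 173 to 478, 571 and 667 CPM over all cells of a library. The third such gene, Gm26917, moved the other way, from 23.7, 11.4 and 11.5 to 5.57, 4.62 and 6.49 CPM (log2 fold change −1.46, SE 0.31, edgeR adjusted p = 0.0094). Reads of these 3 genes may be shared with other copies of the repeat.

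Malat1, a long non-coding RNA kept in the nucleus, fell in all 14 classes by 2.30 to 3.49 on the log2 scale. In the proximal tubule it went from 29986, 38851 and 38712 CPM in BG1, BG3 and BG5 to 4728, 3917 and 2559 in BG52, BG54 and BG56. B cells had the smallest change, from 40683, 41548 and 48507 to 12257, 9306 and 9357. The number of classes passing was 13 without BG5, BG54 or BG56. Both classes showed a wide gap between the groups, and the call held in the proximal tubule, B cells and mesangial and mural cells under every alternative tried for each. Of the 36 pairs of class and nuclear non-coding RNA tested, 28 fell (77.8%, against 10.6% of all pairs) and 0 rose. Malat1, Neat1 and Kcnq1ot1 made up 14, 9 and 4 of these falls. Over all cells 4 of 9 members fell, where 1620 of all 11910 genes fell. In podocytes Neat1, the RNA scaffold of paraspeckles, went from 651, 435 and 678 to 201, 139.7 and 170.1 CPM (log2 fold change −1.96, SE 0.23, edgeR adjusted p = 8.8e-06). Kcnq1ot1, an imprinted antisense RNA, went there from 259, 199 and 237 to 14.3, 43.4 and 49.6 CPM (−2.59, SE 0.31, edgeR adjusted p = 9.54e-06).

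**Figure D1:**
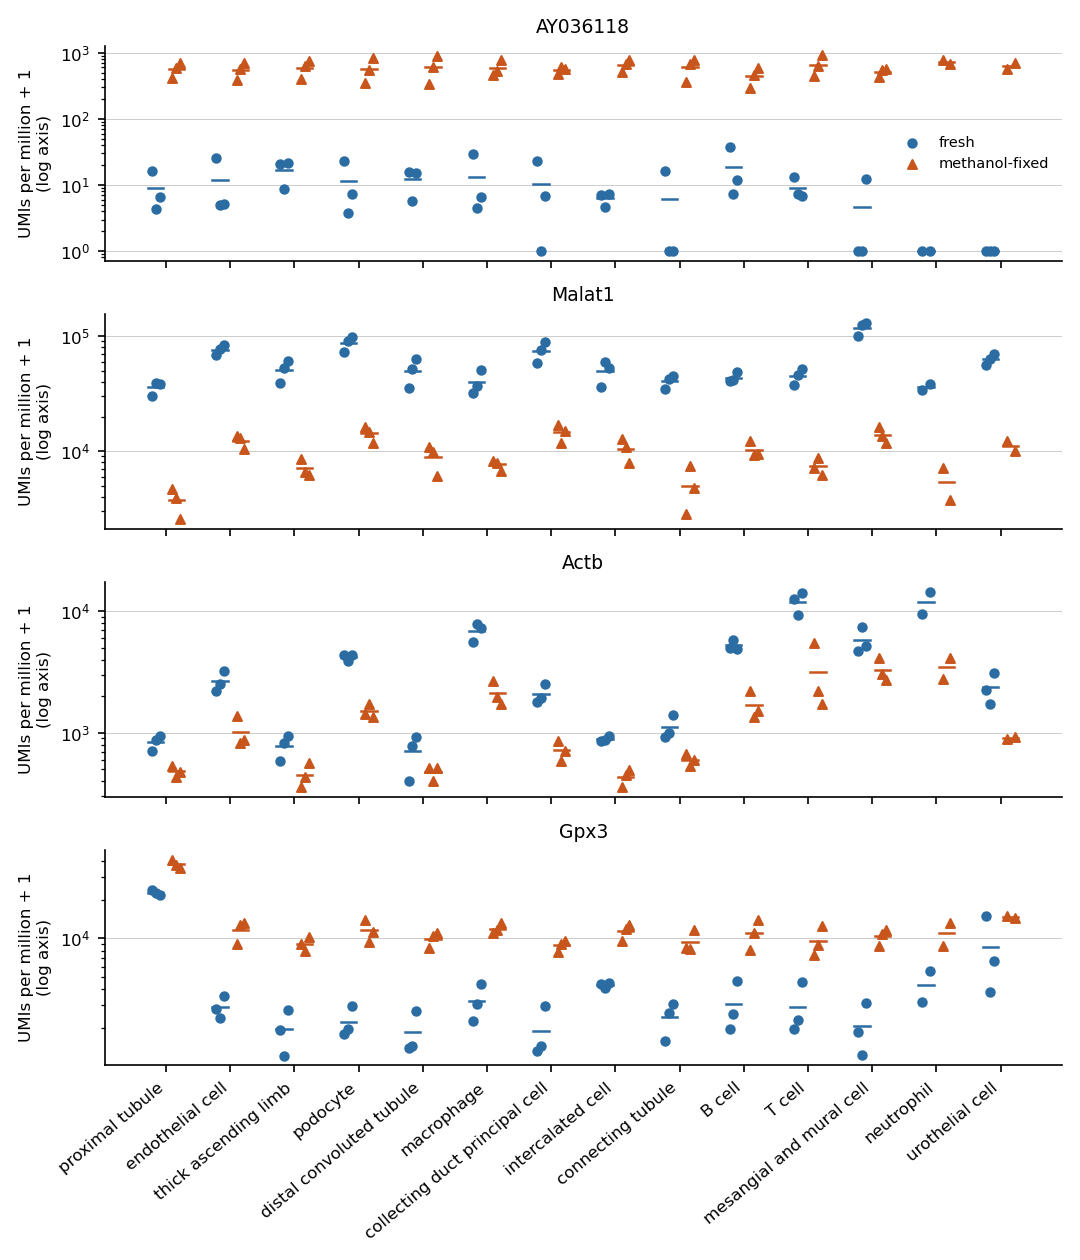
CPM (UMIs per 1000000) plus 1, on a log axis, of AY036118, Malat1, Actb and Gpx3 in each cell class, with 1 point per library (blue circles fresh, orange triangles methanol-fixed). The fixed libraries of the proximal tubule lie at 422 to 709 against 3.39 to 15.2 for AY036118, and at 2559 to 4728 against 29986 to 38851 for Malat1.

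Transcripts of splicing factors and nuclear RNA-binding proteins, most of which are encoded by long messenger RNAs, fell in part. Of 327 pairs of class and gene tested, 137 fell (41.9%) and 3 rose, against 10.6% and 9.52% of all pairs. In the proximal tubule 23 of 32 members fell, or 11 without the 2 mostly fresh clusters. Over all cells of a library, Srrm2, a large spliceosome protein, went from 131, 134 and 122 CPM to 66.1, 49.9 and 47.3 (log2 fold change −1.32, SE 0.11, edgeR adjusted p = 0.000425). Arglu1, a splicing modulator, went from 66.5, 77.6 and 84.0 to 25.6, 25.2 and 24.8 (−1.64, SE 0.14, edgeR adjusted p = 0.000647). Luc7l2, a U1 snRNP-associated protein, went in the thick ascending limb from 154, 195 and 184 to 56.8, 52.4 and 43.0 (−2.17, SE 0.29, edgeR adjusted p = 3.06e-05). In all 3 genes the highest fixed library was below the lowest fresh library. Ogt, the enzyme that attaches N-acetylglucosamine to intracellular proteins, was among the genes that fell most in the thick ascending limb, from 214, 304 and 249.8 to 71.0, 76.6 and 38.3 CPM.

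Other genes passed in nearly every class. Among those that rose, Gm10076 passed in all 14 classes, Gm10116 in all 13 in which it was tested, and Akr1c21, Gpx1, Cyb5a and Uqcrb in 13 of 14. Leaving out 1 library left fewer, with 9 classes for Gm10076, Akr1c21, Gpx1 and Uqcrb without BG3, 7 for Gm10116 without BG56, and 11 for Cyb5a without BG3, BG54 or BG56. Gm10076 and Gm10116 are pseudogene-like and may share reads with their parent genes. In endothelial cells Akr1c21, an aldo-keto reductase of the proximal tubule, went from 184, 197 and 258 CPM to 701, 1242 and 834 (log2 fold change 2.05, SE 0.25, edgeR adjusted p = 4.41e-05). In macrophages Gpx1, the cytosolic glutathione peroxidase, went from 1312, 1305 and 1565 to 2721, 3006 and 4328 (1.04, SE 0.22, edgeR adjusted p = 0.00382). Among those that fell, Rpl6 passed in 14 classes and Rps29 and Srrm2 in 13. The lowest numbers with 1 library left out were 9 for Rpl6 (BG3, BG54 or BG56), 8 for Rps29 (BG54) and 7 for Srrm2 (BG56).

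Within single classes, the genes with the largest changes that at least a share of 0.25 of cells expressed were partly shared. Zbtb20, a zinc finger repressor, went in the proximal tubule from 268, 277 and 256 CPM to 130.4, 102 and 105 (log2 fold change −1.47, SE 0.11, edgeR adjusted p = 7.99e-06). Rrbp1, a ribosome-binding protein of the rough endoplasmic reticulum, went in endothelial cells from 174, 225 and 241 to 29.6, 49.3 and 53.7 and in macrophages from 197, 219.7 and 301 to 37.8, 48.8 and 50.3. Dpysl2, a regulator of microtubules, went in endothelial cells from 248, 257 and 219.8 to 59.2, 44.2 and 60.0 (−2.23, SE 0.23). The genes that rose most in distal classes included Spp2, a secreted phosphoprotein, in the distal convoluted tubule, with 19.3, 28.7 and 23.8 against 149.6, 207 and 252 (2.77, SE 0.35, edgeR adjusted p = 1.19e-05). In principal cells, Cda, which encodes cytidine deaminase, went from 33.5, 11.7 and 34.4 to 166, 161 and 134, and Phactr2, a phosphatase and actin regulator, from 151, 113 and 160.5 to 44.2, 24.8 and 10.3. In the connecting tubule, Guca2b, which encodes uroguanylin, went from 69.2, 83.7 and 91.9 to 345, 526 and 385, and Rbm47, an RNA-binding protein, from 185, 207 and 194 to 36.3, 84.8 and 80.1. The rises of Spp2, Cda and Guca2b were not particular to distal classes. Spp2 rose in 11 of the 12 classes in which it was tested, Cda in 7 of 9 and Guca2b in 10 of 13. Spp2 was also among the top genes of some proximal tubule clusters. None of the genes whose levels are given in this paragraph overlapped between fresh and fixed libraries. They were picked as passing genes with the largest changes, so the lack of overlap is no further support.

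Some of the genes that define a class fell within it in several classes. Of 106 pairs of class and own marker, 37 fell (34.9%) and 1 rose, against 10.6% and 9.52% of all pairs. These markers took part in the clustering and named the clusters, so that cells with low levels of them were less likely to be in the class. Podocytes had the largest change: Nphs1, which encodes nephrin of the slit diaphragm, went from 2391, 2635 and 2857 CPM in BG1, BG3 and BG5 to 487, 323 and 326 in BG52, BG54 and BG56. The change was −2.99 on the log2 scale (SE 0.20, edgeR adjusted p = 1.4e-08). Thsd7a, a membrane protein of podocyte foot processes, went from 947, 881 and 771 to 201, 255 and 206 CPM. Synpo, which encodes the actin-associated synaptopodin, changed by −1.34 and Podxl, the sialoprotein podocalyxin, by −0.84. In all, 6 of 9 podocyte markers fell, and Wt1 and Cdkn1c were among those that did not pass.

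Among endothelial markers 6 of 10 fell. Flt1, a receptor of vascular endothelial growth factor, went from 998, 656 and 490.2 CPM to 217, 286 and 284 (log2 fold change −1.38, SE 0.21, edgeR adjusted p = 0.000167). Tie1, a receptor tyrosine kinase of endothelium, changed by −1.61 (SE 0.22) and Kdr, the main receptor of the same growth factor, by −0.99 (SE 0.19). Emcn and Egfl7, both endothelial, did not pass. The adhesion molecule Pecam1 changed by −0.72, with an adjusted p of 0.00502 in edgeR's test that was 0.0562 without BG54. Among macrophage markers, 3 of 7 fell, with Csf1r, the receptor of colony-stimulating factor 1, at 603, 395 and 346 in fresh and 246, 97.6 and 252 CPM in fixed libraries (−1.41, SE 0.29, edgeR adjusted p = 0.00358). C1qa, a chain of complement C1q, changed by −0.88 (SE 0.16) from 5558, 4521 and 4248 to 3495, 2976 and 2738.

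In the thick ascending limb, the sodium-potassium-chloride cotransporter Slc12a1 went from 5152, 6014 and 5426 CPM to 3152, 3195 and 3237 (log2 fold change −1.12, SE 0.14, edgeR adjusted p = 1.4e-05), and Egf, the epidermal growth factor precursor, changed by −1.05 (SE 0.14). Umod, which encodes uromodulin, changed by −0.42 (SE 0.13, edgeR adjusted p = 0.0257), and its levels of 13105, 10911 and 9463 in fresh and 10948, 10722 and 9439 in fixed libraries overlapped. That call was lost without BG3, BG52, BG54 or BG56, at adjusted p-values of 0.0593, 0.0915, 0.0932 and 0.146. The 1 own marker that rose, the tight junction protein Cldn10 (0.60, SE 0.17, edgeR adjusted p = 0.0182), lost its call without BG3 (0.0767), BG5 (0.112) or BG54 (0.132). In the distal convoluted tubule 5 of 8 markers fell, among them the thiazide-sensitive cotransporter Slc12a3 (−0.76, SE 0.13) and the kinase Wnk4 (−1.16, SE 0.18). The magnesium channel Trpm6 changed there by −2.14 (SE 0.49), with 62.7, 101 and 152 CPM in fresh and 0, 26.5 and 46.9 in fixed libraries.

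In the proximal tubule 7 of 12 markers fell, by less than 0.8 on the log2 scale, and 0 of 12 passed when the 2 mostly fresh clusters were left out, with a median of −0.19 in place of −0.38. Slc27a2, a fatty acid transporter, changed by −0.64 with all cells and by −0.39 without those clusters (edgeR adjusted p = 0.00135 and 0.0811), and Lrp2, the endocytic receptor megalin, by −0.48 and −0.28 (0.0139 and 0.0953). Lrp2 also lost its call without BG3, BG52 or BG54, at adjusted p-values of 0.0817, 0.0575 and 0.0676. No marker fell in connecting tubule, B cells, neutrophils or urothelial cells, where at most 7 were tested, although Klk1 in the connecting tubule (−0.37, edgeR adjusted p = 0.00111) and Ms4a1, which encodes the B cell antigen CD20, in B cells (−0.70, 0.00349) fell with the suspension as a block, and both also passed without BG52 (0.04999 and 0.0226) and Klk1 with each cell named by its own score (0.0361).

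**Figure D2:**
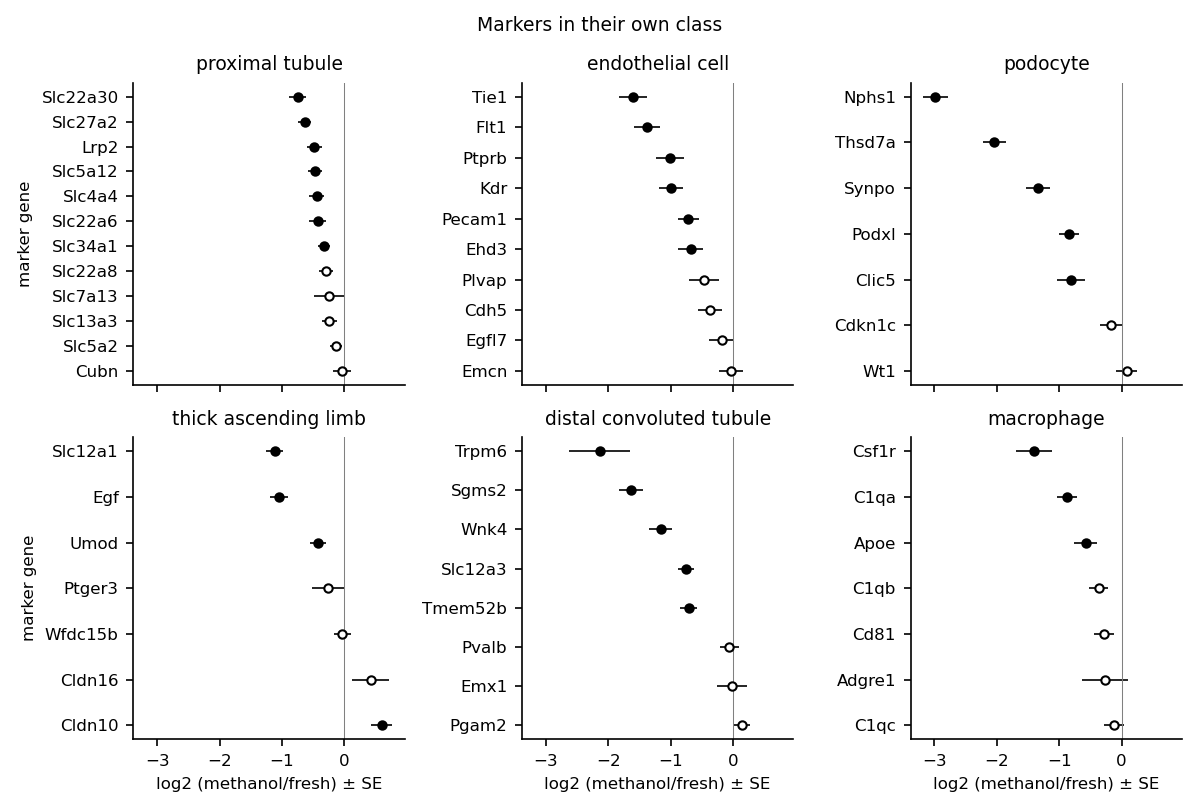
Log2 fold change (methanol over fresh) with its standard error for marker genes of 6 classes within their own class (2 podocyte markers are not shown), from edgeR on library sums per class (filled points pass an adjusted p of 0.05, open points do not). Nphs1 in podocytes lies farthest left at −2.99 and Cldn10 in the thick ascending limb is the 1 filled point above 0.

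Markers of other classes rose in the proximal tubule. Of 60 such markers tested there, 32 rose and 2 fell (median log2 fold change 1.06), where 1030 of all 9699 genes rose and 1105 fell. The filter on low counts could keep a marker through the fixed libraries alone. Without the 2 mostly fresh clusters 29 of 52 rose and 0 fell. Umod stood at 36.7, 32.8 and 40.7 CPM in the proximal tubule in BG1, BG3 and BG5 and at 105, 154 and 117 in BG52, BG54 and BG56 (log2 fold change 1.58, SE 0.17, edgeR adjusted p = 0.000138). Slc12a1, which fell in the thick ascending limb, went here from 7.73, 8.26 and 11 to 21.9, 32.9 and 30.6 (1.47, SE 0.22, edgeR adjusted p = 0.00088). Aqp2, the water channel of principal cells, went from 14, 8.26 and 6.06 to 44.4, 79.9 and 55.5 (2.52, SE 0.27), and Klk1, a kallikrein of the connecting tubule, from 103, 110.3 and 164 to 403, 570.3 and 527 (1.78, SE 0.19). For each of these 4 genes every fixed library lay above every fresh library, although Umod and Slc12a1 stayed far below their levels in the thick ascending limb. Among all classes, 92 of 281 pairs of class and other class's marker rose and 23 fell, where 9.52% of all pairs rose and 10.6% fell. In endothelial cells 15 of 33 rose, in podocytes 8 of 16 and in macrophages 7 of 17. In the connecting tubule, 1 of 21 rose and 5 fell.

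The same was seen for transcripts of the proximal tubule in the other classes. Genes of proximal tubule metabolism took 0.519%, 0.531% and 0.715% of podocyte UMIs in BG1, BG3 and BG5 and 2.67%, 1.87% and 2.32% in BG52, BG54 and BG56. In endothelial cells the shares were 0.793%, 0.720% and 0.971% against 1.94%, 2.74% and 2.71%. In all 13 other classes the fixed libraries lay above the fresh ones without overlap, with a mean 2.06 to 4.28 times that of fresh libraries (median 2.98; exact two-sided permutation p = 0.1 in classes with 3 libraries a group, the smallest possible). The proximal tubule itself rose from 7.15%, 6.05% and 5.48% to 9.63%, 8.74% and 7.77%. These are shares of all UMIs of a class, and the effect of a smaller mitochondrial part on them was not tested. Divided by the proximal tubule level in the same library, the share still rose in the mean in all 13 classes, by 2.12 times in the median, and without overlap in 10.

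**Figure D3:**
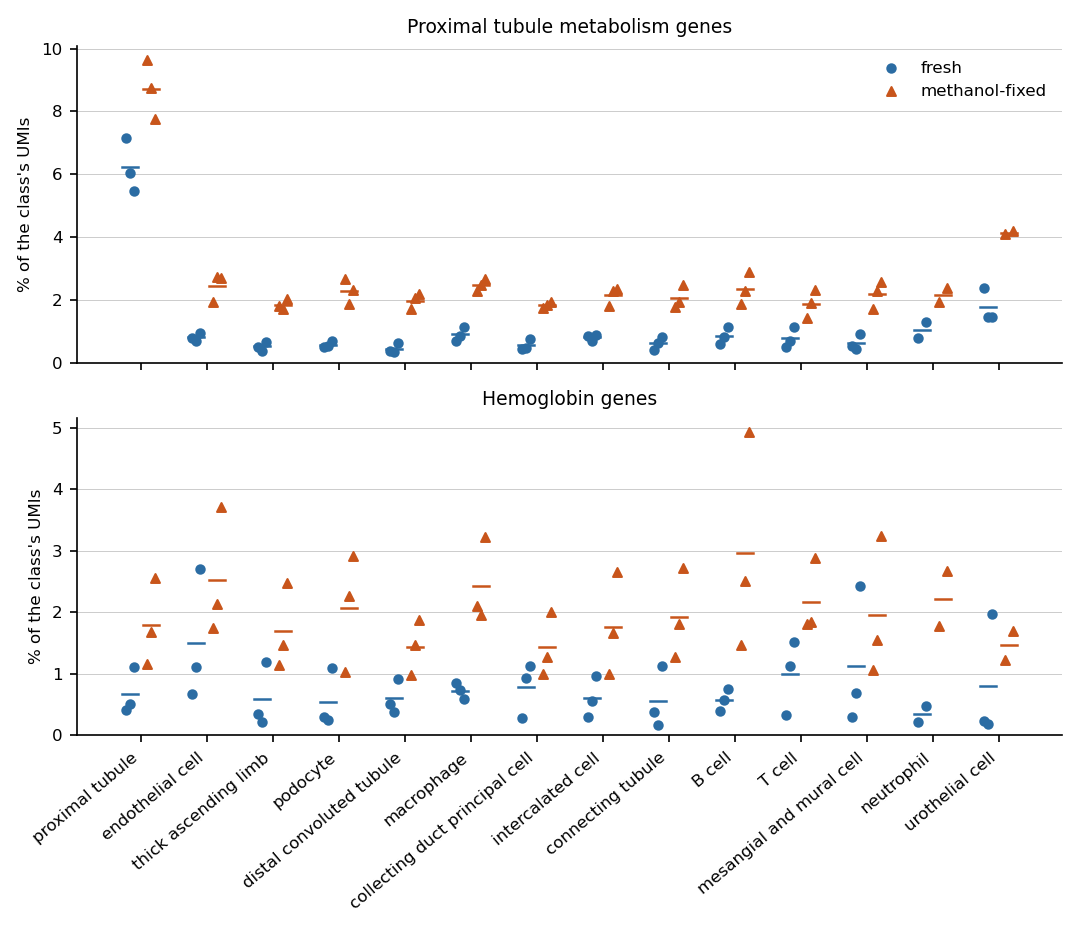
Share of UMIs from genes of proximal tubule metabolism (top) and from the 4 hemoglobin genes (bottom) in each class, in percent, with 1 point per library and the mean as a line (blue circles fresh, orange triangles methanol-fixed). For the metabolism genes no fixed library overlaps the fresh ones in any of the 13 classes outside the proximal tubule; for hemoglobin this holds in 7.

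Single genes showed the size of this change. Gpx3, the secreted glutathione peroxidase made by the proximal tubule, went in podocytes from 1784, 1962 and 2941 CPM to 13906, 9374 and 11206 (log2 fold change 2.20, SE 0.24, edgeR adjusted p = 3.11e-06). In the proximal tubule it went from 23921, 22698 and 21595 to 40994, 37346 and 35488 (0.53, SE 0.09, edgeR adjusted p = 0.00234). Every fixed library was above every fresh one in both classes, and Gpx3 rose in 13 of the 14 classes, or 10 without BG3. Kap, an androgen-regulated gene of the proximal tubule, rose in the distal convoluted tubule from 598, 608 and 543 to 1999.8, 2622 and 2092 (1.60, SE 0.14, edgeR adjusted p = 2.86e-07). In the proximal tubule its levels of 11063, 7991 and 5586 and of 12799, 11174 and 8593 overlapped, and the change of 0.20 did not pass (edgeR adjusted p = 0.463), although it did with the suspension as a block (0.23, adjusted p = 0.0137). Among the largest changes in endothelial cells were those of S100g, a vitamin D-dependent calcium-binding protein, which went from 139, 151 and 173 to 1659, 829 and 875 (2.69, SE 0.24), and Pdzk1ip1, a membrane protein of tubule cells, from 109, 79.7 and 120.4 to 523, 745 and 689 (2.64, SE 0.23). S100g fell in the connecting tubule (−0.64, SE 0.14, edgeR adjusted p = 0.00745).

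By count, the list of proximal tubule metabolism genes rose in 193 of 325 pairs outside the proximal tubule (59.4%, against 9.09% of all pairs there) and fell in 0. Inside it 7 of 48 genes rose and 3 fell, or 2 and 2 without the 2 mostly fresh clusters. Genes of proximal tubule transport rose in 51 of 115 pairs outside and fell in 1, whereas inside 1 of 37 rose and 14 fell, or 2 and 5 without those clusters. Outside the proximal tubule, the filter on low counts could keep a gene of either list through the fixed libraries alone. Both lists were also chosen with earlier results of these data known, so these counts are not independent evidence. Summed as a share of UMIs, the transport genes were above the fresh libraries without overlap in 10 of 13 other classes (median ratio 2.29). In the proximal tubule itself their share overlapped, at 1.31%, 1.18% and 1.14% in BG1, BG3 and BG5 and 1.35%, 1.15% and 1.15% in BG52, BG54 and BG56. Over all cells 5 of 37 transport genes rose and 0 fell, where 1701 of all 11910 genes rose and 1620 fell. The rise was thus near the share of all genes. The 27 genes that the study picked as higher in methanol, on these samples, rose in 290 of 376 pairs and fell in 1, which is no independent evidence of their direction. The same holds for its 10 lower genes, which fell in 74 of 84 pairs and rose in 0.

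Hemoglobin, from red cells that were not removed, was higher in fixed libraries with a wide spread. The 4 hemoglobin genes rose in 30 of 56 pairs (53.6%, against 9.52% of all pairs) and fell in 0. They took 0.421%, 0.548% and 1.20% of all UMIs in BG1, BG3 and BG5 and 1.22%, 1.75% and 2.69% in BG52, BG54 and BG56, so that each fixed aliquot was above the fresh aliquot of its own suspension. Hbb-bt, a beta globin, went in macrophages from 282, 268 and 204 CPM to 1153, 1415 and 1958 (log2 fold change 2.41, SE 0.24, edgeR adjusted p = 3e-05). Summed over all cells, Hbb-bs, another beta globin, stood at 2171, 2630.4 and 5874 in fresh and 6384, 8927 and 13309 in fixed libraries (1.38, SE 0.43, edgeR adjusted p = 0.0411), a call that was lost without BG1 (0.121), BG3 (0.143), BG54 (0.0849) or BG56 (0.141). Hba-a1 and Hba-a2 did not pass over all cells, but did with the block (1.34 and 1.29, edgeR adjusted p = 0.000553 and 0.000656), among genes above 0 in every library (0.0254 and 0.0353) and without BG5 (0.0255 and 0.0227), Hba-a1 also without BG52 (0.0395). Near-identical copies within the alpha and beta globin pairs make the values of single genes uncertain. Divided by the level in the proximal tubule of the same library, hemoglobin did not overlap in 3 classes above and 1 below, with a median ratio of 1.04.

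Nuclear-encoded genes of the respiratory chain rose in part, and those of the mitochondrial genome fell in most tubule classes. The chain's subunits are made from nuclear genes and from 13 genes of the mitochondrial DNA. Of 1032 pairs of class and nuclear-encoded subunit, 359 rose (34.8%) and 5 fell, against 9.52% and 10.6% of all pairs. In endothelial cells 73 of 76 subunits rose (median 0.93), against 44 of 76 in the proximal tubule, or 19 without the 2 mostly fresh clusters, and 50 of 75 in macrophages. Uqcrb, a subunit of complex III, went in endothelial cells from 492, 353 and 351 CPM to 1165, 1234 and 1384 (log2 fold change 1.65, SE 0.19, edgeR adjusted p = 2.52e-05). Ndufb4 of complex I changed there by 1.18 (SE 0.19) and Cox6a1 of complex IV by 0.98 (SE 0.19). In intercalated cells, 8 of 76 rose and 1 fell.

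Of 178 pairs of class and mitochondrial gene, 69 fell (38.8%) and 13 rose (7.30%), against 10.6% and 9.52% of all pairs. In the thick ascending limb, distal convoluted tubule and intercalated cells 12 of 13 fell, and in the proximal tubule and connecting tubule 11 of 13, whereas in endothelial cells, podocytes and macrophages 1 fell in each and 2, 1 and 1 rose. The difference between these classes was not tested. mt-Nd4, a complex I subunit, went in the proximal tubule from 22310.4, 25122 and 23114 CPM to 8980.4, 11677 and 11353 (log2 fold change −1.35, SE 0.14, edgeR adjusted p = 0.000125). In intercalated cells it went from 21178, 21639 and 20367 to 7838, 9865 and 10277 (−1.51, SE 0.19, edgeR adjusted p = 9.89e-05). All fixed libraries were below all fresh libraries in both classes. mt-Atp8, the shortest protein-coding gene of the mitochondrial DNA, rose in 12 classes, although its levels in the thick ascending limb, 588, 296 and 319 in fresh and 525, 1250.5 and 1162 in fixed libraries, overlapped through BG1 and BG52 (1.11, edgeR adjusted p = 0.00257; DESeq2 adjusted p = 0.16). Over all cells it changed by 1.10 (edgeR adjusted p = 0.0315), a call that was lost under the block (1.07, 0.0501) and without BG3 (0.113), BG5 (0.121), BG54 (0.0949) or BG56 (0.108).

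Ribosomal protein genes fell in part. Of 1137 pairs, 298 fell (26.2%) and 14 rose (1.23%), against 10.6% and 9.52% of all pairs. In macrophages 66 of 82 fell, in B cells 47 of 81 and in T cells 31 of 81. In the proximal tubule 36 of 83 fell, or 57 without the 2 mostly fresh clusters. Falls were 6 of 81 in the thick ascending limb, where 313 of all 2414 genes fell. They were 5 of 81 in the distal convoluted tubule, where 275 of all 2089 genes fell. Both were smaller shares than those of all genes. In macrophages Rpl6, of the large subunit, went from 1729, 1507 and 1347 CPM to 1039, 774 and 775 (log2 fold change −1.08, SE 0.16, edgeR adjusted p = 0.000725). Actb, which encodes cytoplasmic beta-actin, fell in all 14 classes, and over all cells from 1473, 2219 and 2272 to 816, 696 and 664 (−1.52, SE 0.18, edgeR adjusted p = 0.00128). Without BG54 it passed in 10 classes, its call being lost in T cells and the distal convoluted tubule, among others, at adjusted p-values of 0.0636 and 0.0682. Across 35 genes of the actin cytoskeleton 48 of 332 pairs fell (14.5%) and 22 rose (6.63%), and of 68 tubulin pairs 2 fell and 3 rose, against 10.6% and 9.52% of all pairs. Of the 48 falls, Actb itself made up 14 and Actr2 8.

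Among stress genes and endoplasmic reticulum chaperones more pairs fell than rose, whereas cytosolic chaperones moved in both directions. The 17 genes that the study used as markers of dissociation stress, chosen among genes higher after warm dissociation, fell in 28 of 90 pairs (31.1%) and rose in 1, where 10.6% of all pairs fell and 9.52% rose. Btg1 and the cytosolic chaperone Hsp90ab1 made up 12 and 10 of these falls. Over all cells 4 of 16 members fell, where 1620 of all 11910 genes fell. Genes of the endoplasmic reticulum chaperones fell in 39 of 158 pairs (24.7%) and rose in 3, and Pdia3, Hsp90b1 and Pdia4 made up 8, 8 and 6 of these falls. Cytosolic chaperones rose in 21 of 161 (13.04%) and fell in 11 (6.83%). Hsp90ab1 alone made up 10 of these 11 falls. Over all cells Pdia4, a protein disulfide isomerase, went from 66.1, 71.4 and 72.5 CPM to 26.7, 21.7 and 16.3 (log2 fold change −1.79, SE 0.14, edgeR adjusted p = 0.000379), and Jun, an immediate early transcription factor, from 30.3, 37.6 and 31.0 to 16.3, 23 and 17.1 (−0.83, SE 0.17, edgeR adjusted p = 0.0076). Btg1, an antiproliferative factor, went from 144, 138 and 96.8 to 48.6, 52.1 and 33.5 (−1.55, SE 0.17). Hspa1a, an inducible heat shock protein whose reads may be shared with Hspa1b, stood at 6.59, 7.33 and 6.43 and at 8.16, 8.93 and 8.31 CPM and did not pass (0.29, SE 0.18, edgeR adjusted p = 0.261). Its change within the proximal tubule was 1.46 (SE 0.57, edgeR adjusted p = 0.0848), which passed among genes above 0 in every library (adjusted p = 0.0415). Metallothionein and antioxidant genes rose in 81 of 220 pairs (36.8%) and fell in 4. Gpx1 and Gpx3 rose in 13 classes each, and Gpx3 is also a member of the proximal tubule metabolism list. Of 22 members, 8 rose in the proximal tubule, or 2 without the 2 mostly fresh clusters. Glycolysis genes rose in 24 of 141 (17.02%) and fell in 8 (5.67%). Cold-inducible genes rose in 0 of 41 and fell in 3 (7.32%), and genes of the p53 and apoptosis list rose in 4 of 43 (9.30%), near the share of all pairs, and fell in 1.

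**Figure D4:**
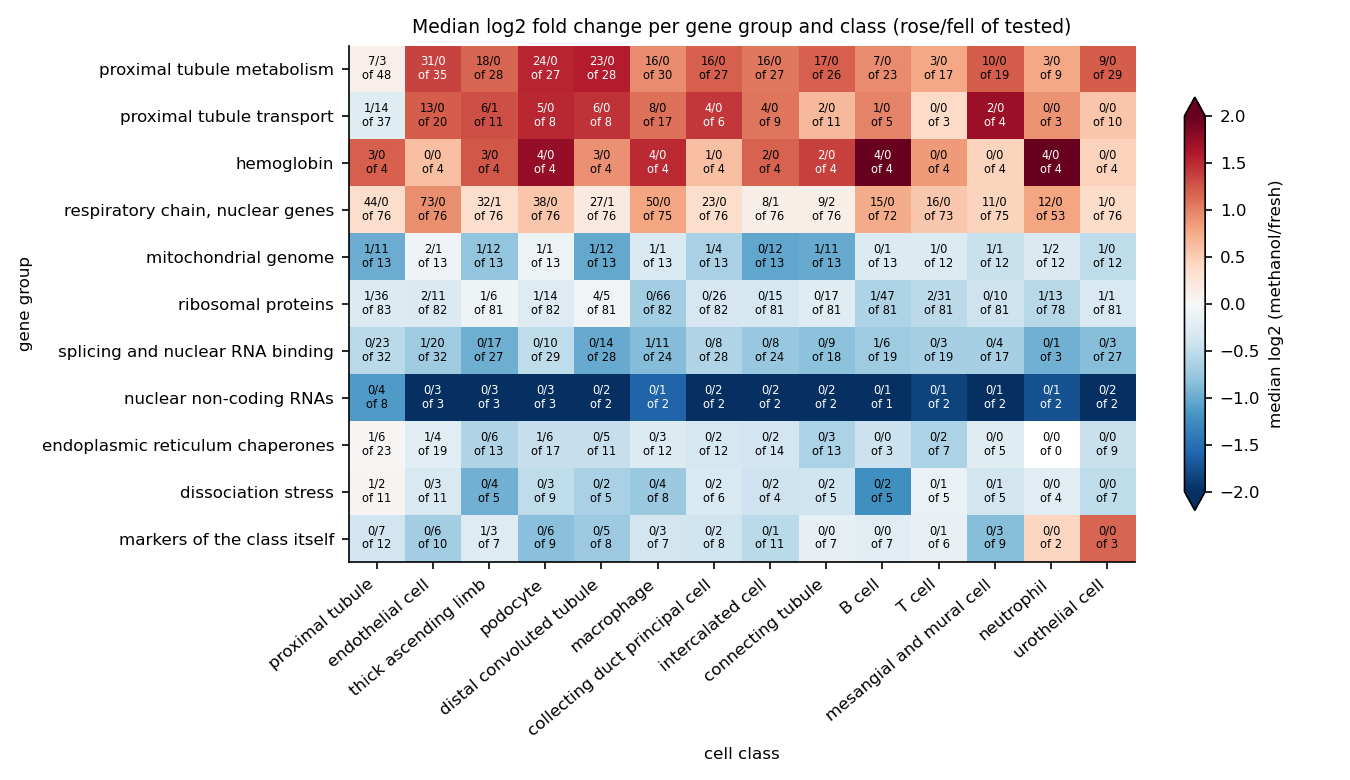
Median log2 fold change (methanol over fresh, colour) of each gene group in each cell class, with the number of genes that rose and fell at an edgeR adjusted p of 0.05 and the number tested written in each cell. Nuclear-encoded respiratory chain genes are red throughout, up to 73 of 76 genes rising in endothelial cells, and the mitochondrial genome row is bluest in tubule classes.

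Genes of antigen presentation differed between the level of the library and that of some tubule classes. Over all cells 8 of 9 genes of MHC class II fell, 1 of which, Ciita, was listed at 0 in a library, as did 7 of 11 of class I. Of all 11910 genes tested over all cells, 1620 fell. Cd74, the invariant chain of class II, went from 4001, 4301 and 4223 CPM to 2891, 2623 and 2650.4 (log2 fold change −0.67, SE 0.10, edgeR adjusted p = 0.00288). In these sums fewer cells of a type and less RNA per cell cannot be told apart, and macrophages made up 4.97%, 4.87% and 5.53% of fresh and 2.92%, 3.38% and 3.47% of fixed cells. Within macrophages Cd74 changed by −0.42, which did not pass (SE 0.21, edgeR adjusted p = 0.147), although it did with the block (−0.42, 0.00974) and with each cell named by its own score (−0.83, 0.0114). In the proximal tubule, 6 of 7 class II genes rose, Cd74 from 167, 162 and 187 to 396, 429 and 479 CPM (1.13, SE 0.12, edgeR adjusted p = 0.00015) and H2-Aa, the alpha chain of I-A, from 35.5, 29.2 and 35.9 to 79.8, 94.9 and 113 (1.33, SE 0.16). Class II genes also rose in the distal convoluted tubule (3 of 4) and in principal cells (3 of 3). Of all genes, 1030 of 9699 rose in the proximal tubule, 216 of 2089 in the distal convoluted tubule and 178 of 2357 in principal cells. In the fit without the block, 0 of 6 fell in macrophages and 0 of 8 in B cells. Class I genes fell in 6 of 11 in endothelial cells, where 669 of all 4456 genes fell. In macrophages 5 of 9 class I genes fell, where 247 of all 1897 genes fell.

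Summed over all cells, 1701 of 11910 genes rose and 1620 fell (27.9% called; median log2 fold change −0.08). The counts were 896 and 810 without BG3 and 1029 and 993 without BG5. Beside the genes above, Hist2h2aa1, a replication-type histone, went from 9.04, 4.60 and 5.79 CPM to 21.9, 70.4 and 82.7 (log2 fold change 3.26, SE 0.48, edgeR adjusted p = 0.00239). Gm26699 and Foxn3, a forkhead transcription factor, were among the genes with the largest fitted falls, −3.80 and −3.16, with 23.9, 21.5 and 15.2 against 3.71, 1.91 and 0 and with 25.0, 28.1 and 21.5 against 0, 3.67 and 3.32 CPM. Both were at 0 in 1 fixed library, where low counts may be hidden. Of all genes that passed, 162 were at 0 in at least 1 library. Among lymphocytes, Pdcd4, a translation inhibitor, fell in T cells from 391, 375 and 322 to 33.9, 46.3 and 31.1 (−3.38, SE 0.38, edgeR adjusted p = 0.000393).

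The direction of change followed transcript length. Among the 97.1% of genes matched to an annotated transcript (GENCODE vM21), those with a longest transcript under 1 kb rose in 35.4% and fell in 6.13%, with a median log2 fold change of 0.33. From 3 to 4 kb, 8.86% rose and 10.5% fell, and at 8 kb or more 0.617% rose and 42.3% fell, with a median of −0.65. With the genes above 0 in every library, the shares at 8 kb or more were 0.916% and 56.2%. In endothelial cells the median went from 0.48 under 1 kb to −1.01 at 8 kb or more, and in macrophages from 0.28 to −0.65, the latter over 30 genes. Length is that of the longest annotated transcript, not of the molecules captured at the 3′ end, and its part in the single results was not tested.

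Some gene groups departed from genes of their own length. Nuclear-encoded respiratory chain genes rose in 81.6% of members, against 34.5% of the genes between the quartiles of the group's lengths, and splicing genes fell in 65.6% against 15.9%. Ribosomal protein genes had a median of −0.25 where genes of like length had 0.36, mitochondrial genes −0.67 against 0.38 and class II genes −0.62 against 0.27. Among single genes, the transcript of Nphs1 is 4608 bases long, and between 4 and 6 kb 19.2% of genes fell. That of Actb is 1920 bases long, and between 1 and 2 kb 32.0% of genes rose and 3.67% fell.

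**Figure D5:**
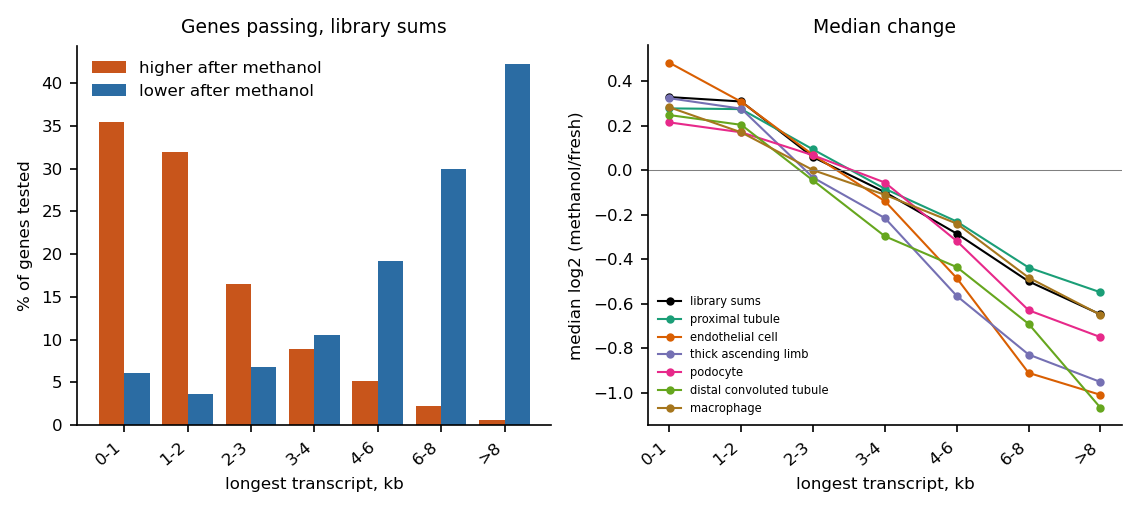
Left, percent of genes tested over all cells of a library that were higher (orange) or lower (blue) after methanol, by length of the longest annotated transcript in kb. Right, median log2 fold change (methanol over fresh) by the same lengths over all cells and in 6 classes; over all cells it runs from 0.33 under 1 kb to −0.65 at 8 kb or more.

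The number of classes whose cell numbers passed depended on the pairing of the aliquots. Without it, macrophages alone passed by edgeR's quasi-likelihood test on cells per class (log2 fold change −0.65, SE 0.15, adjusted p = 0.0489). For macrophages the adjusted p of that test was 0.140, 0.325, 0.249, 0.0795 and 0.156 without BG3, BG5, BG52, BG54 or BG56. With the suspension as a block, pairing each fixed with its fresh aliquot, 7 classes passed: proximal tubule (0.15, adjusted p = 0.00719) and unnamed cells (0.40, 0.00978) were higher, and endothelial cells (−0.56, 0.00199), macrophages (−0.63, 0.00199), podocytes (−0.73, 0.00719), T cells (−0.73, 0.0126) and B cells (−0.63, 0.0148) were lower. Without the block, naming each cell by its own score turned the proximal tubule from 0.14 to −0.12, neither passing. Podocytes made up 2.33%, 3.60% and 2.77% of fresh and 1.91%, 2.27% and 1.38% of fixed cells. Class names rest on genes that themselves changed with fixation, so that losses of cells and losses of markers cannot be told apart.

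The same comparison after warm dissociation, in 3 fresh and 3 fixed libraries, was the nearest to set beside it, and the cold and warm comparisons share no libraries. In a fit of all 12 libraries, 1664 of 12001 genes rose and 1320 fell after cold dissociation (24.9% called), and 903 rose and 1658 fell after warm dissociation (21.3% called). For the difference between both effects edgeR called 0 genes (0%), with 1205 at an unadjusted p under 0.05, and DESeq2 called 177. That fit left the pairing by suspension out; with the suspension as a block 16 genes passed, 5 higher and 11 lower in the cold comparison, and 1350 had an unadjusted p under 0.05. The count was 850 without the block and without the second warm fixed library. Nuclear-encoded respiratory chain genes rose in 67 of 76 members in cold and 46 in warm libraries, and genes of proximal tubule metabolism in 25 and 6 of 48. AY036118 rose by 6.15 and 6.76 on the log2 scale (SE 0.43 and 0.43), and Actb changed by −1.53 and −0.96, a difference of −0.57 (SE 0.21) that did not pass (edgeR adjusted p = 0.375).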

How the data were processed

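The 6 droplet libraries are 10x Genomics 3′ libraries of mouse kidney cells. The authors deposited whole-number UMI counts per gene and cell, made with Cell Ranger 2.1.1 on mm10 from exonic reads. Per the methods, barcodes were called by EmptyDrops, genes had to be in at least 10 cells, and cells were kept with 200 to 3000 genes and under 50% mitochondrial UMIs. In the files such a minimum appears to act in each library alone, so that a value of 0 may hide a low count. Totals were 2694610 to 8051722 UMIs per library, and cells held 195 to 2971 listed genes.

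The members and the gene lists were chosen with earlier results of these data known. Cells were clustered on 2000 variable genes, 30 principal components, 20 neighbours and Leiden resolution 2 (leidenalg 0.10.2), leaving out 466 genes of the lists. A cluster was named from at least 3 markers. Expected doublets (820 barcodes, 3.49%) were marked and kept. UMIs were summed per library and class, for libraries with at least 10 cells of it. The sums, cells per class and the sums of all cells were compared with edgeR 4.0.16 in R 4.3.3 (TMM, filterByExpr, quasi-likelihood test, Benjamini-Hochberg). Per the methods, the suspensions were made from different mice. Library measures were compared by exact two-sided permutation. Alternatives were DESeq2 1.42.0, RLE factors, no filter, thinning, other clusterings, each library left out, and the suspension as a block.

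The suspensions given in the cell names pair the libraries. Deviations from group means correlated at 0.2365, 0.2353 and 0.2467 within suspensions and at −0.186 to −0.0073 between them, over 11910 genes, so the numbers do pair them.

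Named are the examples given for a list, the 8 genes per direction passing in most classes, the 3 per direction with the largest change in a class among those in a share of at least 0.25 of cells, and the 8 per direction over all cells with at least 20 CPM. The text gives part of them, and some genes are not reported here. Markers of other classes in the proximal tubule were added after their values were seen. On simulated counts for library sums, with 200 of 11910 genes changed, 4.48%, 68.7% and 80.3% of changes of 0.5, 1 and 2 on the log2 scale were called. Of the calls, 12.8% were false.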

Additional observations from a re-analysis of the deposited data

How the results depend on the processing

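Counts of genes passing depended on the threshold and on single libraries. Per cell class (1413 higher, 1926 lower), DESeq2 left 1148 lower, the study's thresholds left 25 higher and 11 lower, a log2 fold change of 1 left 703 and 1217, and thinning to 500 UMIs per cell left 473 and 613. Leaving out 1 library gave 763 to 1509 higher and 1102 to 2029 lower. Over all cells (1701 and 1620), a log2 fold change of 1 left 60 and 584, and leaving out 1 library gave 896 to 1730 and 810 to 1708. Among cells per class, 0 classes passed with TMM factors, 0 with cells outside the proximal tubule as the total, 0 to 2 without 1 library, and 7 with the replicate block, and naming each cell by its own score turned the proximal tubule from 0.14 to −0.12. For cold against warm dissociation, 2 genes passed among those above 0 in every library, 177 with DESeq2, 16 with the replicate block (added after seeing the data), and 0 to 850 without 1 library. The causes of these differences were not tested. The suspension block gave 1994 higher and 2662 lower genes per class and 2181 and 2069 over all cells, and beside the calls given with their results it lost the calls of Rpl6, Ttr, Plin2, Syne2 and Nfe2l1 in urothelial cells and Tmcc1 in neutrophils, and gained those of Akr1c21, Gpx3 and Rps29 in urothelial cells, Gpx1 in neutrophils, Cyb5a and Kap in T cells, mt-Atp8 in intercalated cells, H2-D1 in endothelial cells, C1qb in macrophages, and mt-Nd6 and Tmsb4x over all cells. It changed no other call among the genes examined singly. Among the combinations of a gene examined singly and a class, or all cells, 87 lost their call without BG54, 76 without BG3 and 68 without BG56.

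Leaving out 1 library kept the direction of the library measures, with differences of −12.8 to −9.24 percentage points in mitochondrial UMIs, −575 to −409 in median UMIs, and 40.8 to 56.2 in genes per cell at 500 UMIs. Divided by the level in the proximal tubule, transcripts of its metabolism genes were above the fresh libraries without overlap in 10 to 13 of 13 classes without 1 library, 10 with thinning, 12 without doublets, 12 of 14 with cells named by their own score, 9 of 11 at Leiden resolution 1 and 9 of 10 with clusters of fresh cells. Few small changes were called in simulations, where 14.9% of changes of 0.5 were called in the proximal tubule and 4.48% in urothelial cells and in library sums. Each simulation changed 200 genes, fewer than were called over all cells or in the proximal tubule. These shares may therefore not carry over to the data. The restrictions to genes above 0 in every library and to clusters not mostly fresh were chosen after seeing the data.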

Other observations

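The shares of UMIs taken by whole gene groups moved beside the calls. Nuclear-encoded respiratory chain genes took 7.06%, 6.13% and 6.50% of UMIs in BG1, BG3 and BG5 and 9.97%, 9.31% and 10.1% in BG52, BG54 and BG56, and ribosomal protein genes 7.47%, 7.16% and 6.86% against 6.10%, 6.21% and 6.21%. Neither group overlapped between fresh and fixed libraries. These are shares of all UMIs, of which mitochondrial genes took 29.6% in fresh and 18.6% in fixed libraries. A smaller mitochondrial part raises the share of every other group, and its effect on these values was not tested. The rank order of genes in the summed libraries was compared with that of the mean of the 3 bulk RNA-seq samples of fresh cells dissociated in the cold over 12471 genes. Spearman's rho across genes was 0.636, 0.643 and 0.661 in fresh and 0.574, 0.574 and 0.612 in fixed libraries, with no overlap; genes are not independent replicates.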
